A study of Mus musculus with 6 samples.

Results

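The genes described here encode 9 receptors of glutamate, the main excitatory transmitter of the brain: the NMDA receptor subunits Grin1, Grin2a, Grin2b, Grin2c, Grin2d and Grin3a, and the metabotropic receptors Grm2, Grm3 and Grm5. They were chosen by symbol, and all 9 were found among the 39179 genes of the count table through their Ensembl identifiers. The values come from RNA sequencing of 6 libraries of mouse neural progenitors, cells that divide and can form neurons or glia, which were taken from E13.5 cerebral cortex of the CD1 strain and then differentiated. In 3 libraries the cells stably expressed the G392E variant of neuroserpin (G392E-NS), a serine protease inhibitor of neurons whose polymers cause the dementia FENIB, and in 3 they stably expressed green fluorescent protein (GFP). The promoter that drives either transgene is not given in the sources used here. Nor do these sources say whether the 3 replicates of a group came from separate cultures, so the p-values describe only how far these libraries vary, and that variation may be technical.

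NMDA receptors are calcium-permeable channels that open when glutamate and a co-agonist, glycine or D-serine, bind together. Each channel holds the obligatory subunit GluN1 (Grin1) with GluN2 subunits (Grin2a to Grin2d), which set its kinetics and magnesium block, or with GluN3 subunits (Grin3a, Grin3b), which bind glycine and lower calcium entry. Metabotropic receptors act through G proteins: those of group I, to which Grm5 belongs, signal through Gq to phospholipase C and calcium release, and those of group II (Grm2, Grm3) through Gi to lower cyclic AMP. In the brain Grm3 and Grm5 are made by astrocytes and their precursors as well as by neurons, and NMDA subunits and Grm5 are also made by oligodendrocyte precursors.

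The libraries held 15507487 to 24835835 counts. Of the progenitor markers, Sox2 had 450 ± 47.2 CPM, which is counts scaled to library size, in G392E-NS and 373 ± 54.7 CPM in GFP libraries (mean ± SD, n = 3 each). Fabp7 had 2660 ± 469 and 2620 ± 362 CPM in the same order. Hes1 (8.03 ± 4.76 and 9.97 ± 2.96 CPM) and Eomes (0.642 ± 0.25 and 1.90 ± 0.588 CPM) were low. These genes do not decide how far the cells were still progenitors, and markers of several lineages were present beside each other. Astrocyte markers, summed over the 15 genes of a list, came to 11700 to 20400 CPM in G392E-NS and 4690 to 7210 CPM in GFP libraries. By edgeR's test 7 of the 15 were higher in G392E-NS libraries, against 4.79% of all genes tested. Oligodendrocyte lineage markers (10 genes) summed to 3590 to 5800 CPM in G392E-NS and 3820 to 4460 CPM in GFP libraries, and neuron markers (14 genes) to 3290 to 4540 and 3520 to 4080 CPM in that order. Each of 6 microglia markers stayed under 10 counts in every library, with Csf1r and C1qa at 0 counts. Of 9 endothelial and mesenchymal markers, 7 stayed under 10 counts in every library, among them Cldn5, Lum and Dcn at 0 counts. The 9 summed to 0.456 to 2.21 CPM in G392E-NS and 0.518 to 0.855 CPM in GFP libraries. The groups also differed in Xist, the RNA of the silenced X chromosome, with 1490 ± 345 CPM in G392E-NS and 1.51 ± 0.0831 CPM in GFP libraries. The Y-linked genes Uty (27.3 ± 2.24 and 59.2 ± 2.29 CPM in the same order), Ddx3y (53.0 ± 3.11 and 101 ± 2.6 CPM), Kdm5d (46.4 ± 5.92 and 90.7 ± 4.1 CPM) and Eif2s3y (55.7 ± 4.14 and 105 ± 11.4 CPM) were lower in G392E-NS libraries (edgeR, adjusted p = 0.000844, 0.000956, 0.00279 and 0.00348). These sex-linked genes moved with the transgene, so in every difference between the groups given here the transgene and the sex or source of the cells cannot be told apart.

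The promoters of 3 members are shown because they span the range of levels described next: Grm3, which had the highest level per kilobase of exon, Grin1, the obligatory NMDA subunit, and Grm2, which was barely detected. Each sequence is the 250 bases before the RefSeq transcription start (GRCm38.p6, minus strand), at chr5:9725353-9725602 for Grm3, chr2:25319188-25319437 for Grin1 and chr9:106656110-106656359 for Grm2. Capitals mark matches, on either strand, to the letters TTCAGCACC and GGACAG, the left and right parts of RE1 (the element bound by REST, a repressor of neuronal genes), and to GGGCGG, the GC box. A cyclic AMP element (CRE), with the letters TGACGTCA, was also searched on either strand, as was the TATA box, with the letters TATAAA. The 5 motifs do not overlap each other in these windows.
Grm3: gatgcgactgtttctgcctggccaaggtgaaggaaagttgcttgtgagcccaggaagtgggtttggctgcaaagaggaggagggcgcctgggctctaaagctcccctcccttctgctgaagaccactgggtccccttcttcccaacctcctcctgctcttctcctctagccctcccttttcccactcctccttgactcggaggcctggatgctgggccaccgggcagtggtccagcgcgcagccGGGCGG
Grin1: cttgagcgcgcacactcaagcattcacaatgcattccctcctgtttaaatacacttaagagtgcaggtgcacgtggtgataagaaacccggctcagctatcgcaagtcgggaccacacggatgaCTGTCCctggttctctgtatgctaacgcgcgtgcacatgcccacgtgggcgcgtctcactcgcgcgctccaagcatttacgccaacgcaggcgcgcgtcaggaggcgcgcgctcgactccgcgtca
Grm2: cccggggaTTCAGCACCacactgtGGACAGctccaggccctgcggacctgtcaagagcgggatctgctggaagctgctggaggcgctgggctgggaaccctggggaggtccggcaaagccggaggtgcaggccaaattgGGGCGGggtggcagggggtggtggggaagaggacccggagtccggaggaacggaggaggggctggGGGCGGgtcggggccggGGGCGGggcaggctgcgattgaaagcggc
The Grm2 window held 1 match to the left part of RE1, found in 0.301% of 32851 RefSeq promoter windows of this length, with 1 match to the right part after it, found in 18.7%. The Grin1 window held 1 match to the right part and none to the left part. GC boxes, present in 32.7% of promoter windows, numbered 3 in Grm2 and 1 in Grm3, and none was found in Grin1. No window held CRE (1.55% of windows) or the TATA box (12.4%). A match describes the letters only and says nothing of binding in these cells. Of the 9 members, 5 had an entry in the RefSeq promoter table.

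Per kilobase of exon, 3 of the 9 genes made up nearly all of the receptor RNA in every library: Grm3, Grm5 and Grin3a. Grm3 stood at 31.9, 26.5 and 25.4 CPM per kilobase in G392E-NS and at 31.0, 29.2 and 32.5 in GFP libraries. Grin3a and Grm5 overlapped each other in level, at 11.6 ± 3.68 and 11.9 ± 3.94 CPM per kilobase in G392E-NS and 14.0 ± 0.108 and 10.3 ± 4.68 in GFP libraries (mean ± SD, n = 3 each). All other members lay below 1.2 CPM per kilobase in every library.

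Among these lower genes, Grin2b came first per kilobase of exon, at 0.751 ± 0.25 CPM in G392E-NS and 0.85 ± 0.307 CPM in GFP libraries. Grin1 followed at 0.531 ± 0.156 and 0.279 ± 0.0321 CPM per kilobase, overlapping Grin2b in G392E-NS libraries but not in GFP libraries, and overlapping Grin2c in both groups. Grin2c, at 0.32 ± 0.127 and 0.137 ± 0.101, and Grin2d, at 0.229 ± 0.0316 and 0.0875 ± 0.0344 CPM per kilobase in the same order of groups, overlapped each other in both groups. Grm2 and Grin2a were at or below 0.0513 CPM per kilobase in each library and could not be ranked against each other. These levels depend on annotated length: the exons of Grin2b cover 24842 bases, of which the longest coding sequence takes 4446, whereas those of Grm3 cover 3049 bases. Per kilobase of the longest transcript, Grin2b was 0.849, 0.572 and 0.531 times Grin1 in G392E-NS and 1.81, 1.60 and 0.809 times in GFP libraries. The order of Grin2b and Grin1 thus depended on the length used. Counted per kilobase of coding sequence, an alternative chosen after seeing the data, Grm3 made up 29.0 ± 5.41% of the 9 members in G392E-NS and 29.7 ± 4.68% in GFP libraries, against 53.1 ± 6.27% and 54.8 ± 5.98% per kilobase of exon, and it no longer ranked above Grin3a (35.9 ± 3.01% and 41.8 ± 5.1% per kilobase of coding sequence).

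**Figure D1:**
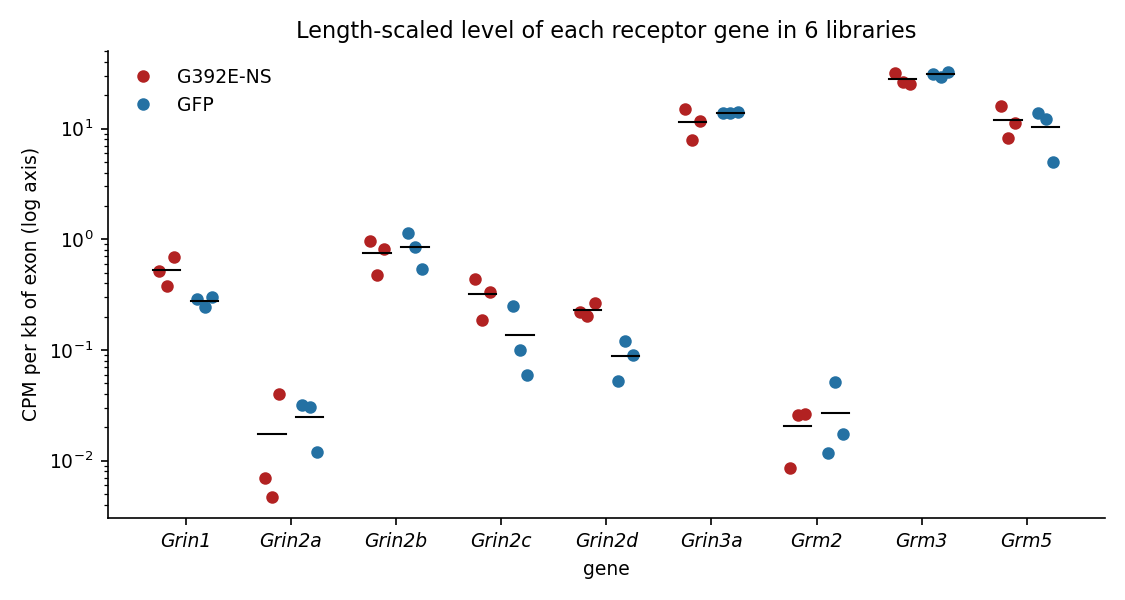
CPM per kilobase of exon (log axis) of each of the 9 receptor genes, with a point for each library, G392E-NS left and GFP right, and a bar at the mean of 3. Grm3, Grm5 and Grin3a lie above 5 CPM per kilobase in all 6 libraries, and Grin2a and Grm2 lie near 0.02.

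Between the groups, no member passed edgeR's test, and Grm2 had too few counts to be tested. Of the 8 members with enough counts to be tested, 0 were called higher and 0 lower by edgeR's quasi-likelihood test at an adjusted p under 0.05, against 6.15% of all 13775 genes tested. At an unadjusted p under 0.05 there were 3 members (Grin1, Grin2c and Grin2d), all with higher means in G392E-NS libraries, against 14.4% of all genes that were higher at this level. DESeq2 called 1 member, Grin1 (adjusted p = 0.0308), where it called 10.5% of all genes. With no low-count filter edgeR called 2, Grin1 and Grin2d (adjusted p = 0.0382 and 0.028), where 6.81% of all genes were called. Over all alternatives the adjusted p ran between 0.0308 and 0.266 for Grin1 and between 0.028 and 0.173 for Grin2d. The median log2 fold change (G392E-NS over GFP) of the 8 was 0.03, and that of all genes tested was 0.00. In bulk RNA, fewer cells of a type and less of a transcript per cell cannot be told apart, here and in the values that follow.

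Grin1 and Grin2d were the members whose groups did not overlap. Grin1 (ENSMUSG00000026959, GRCm38 chromosome 2, 25291181 to 25319187, minus strand) had 5.03, 3.69 and 6.72 CPM in G392E-NS replicates 1 to 3 and 2.82, 2.36 and 2.95 CPM in GFP replicates 1 to 3. Every G392E-NS library lay above every GFP library, as was so for 15.7% of all genes tested. The log2 fold change was 0.91 (SE 0.26), 1.88-fold, with an adjusted p of 0.0812, which fell short of the threshold. Its counts were low, 87 to 121 in G392E-NS and 47 to 69 in GFP libraries. The antisense gene Grin1os overlaps 1307 bases of its exons and had at most 2 counts in any library, but reads on that stretch cannot be assigned to a strand, since the strand setting of the counting is not given in the sources used here.

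Grin2d, which encodes a GluN2 subunit of slow kinetics and weak magnesium block (ENSMUSG00000002771, chromosome 7, 45831883 to 45878378, minus strand), had 1.46, 1.36 and 1.76 CPM in G392E-NS and 0.346, 0.803 and 0.599 CPM in GFP libraries. The groups did not overlap, on counts of 27 to 35 in G392E-NS and 6 to 16 in GFP libraries. Its log2 fold change of 1.35 (SE 0.33), 2.55-fold, had an adjusted p of 0.0515, just short of the threshold. The antisense gene Gm45441 overlaps 643 bases of its exons and has no counts of its own in the table. Grin2c, known from cerebellar granule cells and astrocytes (ENSMUSG00000020734, chromosome 11, 115249169 to 115267243, minus strand), had 2.20, 0.933 and 1.70 CPM in G392E-NS and 1.27, 0.502 and 0.299 CPM in GFP libraries. Here G392E-NS replicate 2 lay below GFP replicate 1, and its log2 fold change, 1.27 (SE 0.53), missed the threshold (adjusted p = 0.209). Leaving out a library moved it between 0.88, without GFP replicate 3, and 2.0, without GFP replicate 1 (adjusted p = 0.386 and 0.12).

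Grin2b, the GluN2 subunit that prevails in the embryonic brain (ENSMUSG00000030209, chromosome 6, 135713233 to 136173511, minus strand), had 24.0, 11.9 and 20.1 CPM in G392E-NS and 28.7, 21.2 and 13.4 CPM in GFP libraries. The groups overlapped over most of their range, and the log2 fold change was −0.17 (SE 0.32) at an adjusted p of 0.789. Its direction turned without G392E-NS replicate 2 (0.08) or without GFP replicate 1 (0.11). Grin2a, the GluN2 subunit that takes over in the mature forebrain (ENSMUSG00000059003, chromosome 16, 9567898 to 9995560, minus strand), had 3, 2 and 11 counts in G392E-NS and 10, 11 and 5 counts in GFP libraries. With so few counts the log2 fold change of −0.69 had an SE of 0.77 (adjusted p = 0.634), and a difference was not detectable at this depth. It rested on single libraries, at −2.0 without G392E-NS replicate 3 (SE 0.66, adjusted p = 0.145) and −0.21 without G392E-NS replicate 2.

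**Figure D2:**
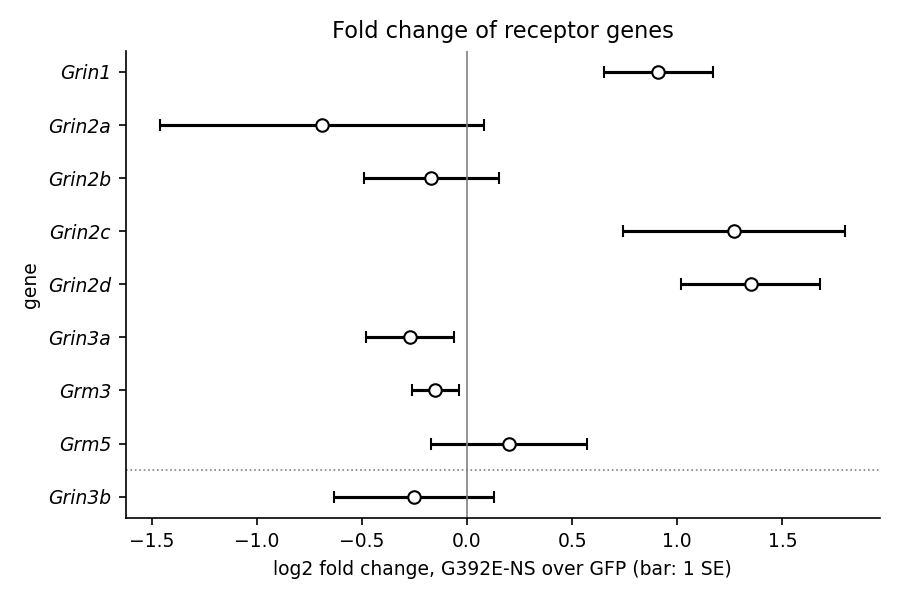
Log2 fold change of G392E-NS over GFP with a bar of 1 SE (n = 3 each) for the 8 members tested, above the dotted line, and for Grin3b, below it. Open points did not pass the test. Grin1, Grin2c and Grin2d lie between 0.91 and 1.35, and the other members near or below 0.

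The mix of GluN2 subunits stood apart between the groups for 3 of the 4 subunits. Of the summed Grin2a to Grin2d level per kilobase of exon, Grin2b made up 59.3, 54.8 and 55.8% in G392E-NS and 77.5, 77.3 and 77.0% in GFP libraries. This share was nearly the same in the GFP libraries while their Grin2b level itself ranged over more than a factor of 2, and the groups lay 20.6 percentage points apart. The other subunits rested on few counts. Grin2c had 53, 22 and 26 counts in G392E-NS and 22, 10 and 7 in GFP libraries, and Grin2d had 6 to 16 in GFP libraries. Counting error therefore limits how closely the shares can be read, and their closeness in GFP libraries does not show a fixed mix. Grin2c made up 26.8, 21.2 and 23.2% in G392E-NS and 16.9, 9.01 and 8.47% in GFP libraries, and Grin2d 13.4, 23.4 and 18.2% in G392E-NS and 3.48, 10.9 and 12.8% in GFP libraries. For these 3 subunits no library of one group entered the range of the other. Grin2a held 0.427 to 2.76% in G392E-NS and 1.70 to 2.78% in GFP libraries, and these ranges overlapped.

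An exact two-sided permutation test over the 6 libraries gave p = 0.1 for Grin2b, Grin2c and Grin2d, and 0.133 for each after adjustment over the 4 subunits. The smallest p that this test can give with 3 against 3 libraries is 0.1, so it cannot reach the threshold here, and no other test was made on the shares. The shares of the 4 subunits add up to the whole and are not independent of each other. Their size depends on length: per kilobase of coding sequence Grin2b made up 82.3 ± 1.97% in G392E-NS and 91.6 ± 0.435% in GFP libraries, a difference of −9.28 points, and by plain counts the difference was −8.23 points. The summed astrocyte markers also separated the groups, at 11700 to 20400 CPM in G392E-NS and 4690 to 7210 CPM in GFP libraries, and their part in these shares and in the Grin1 and Grin2d values was not tested.

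**Figure D3:**
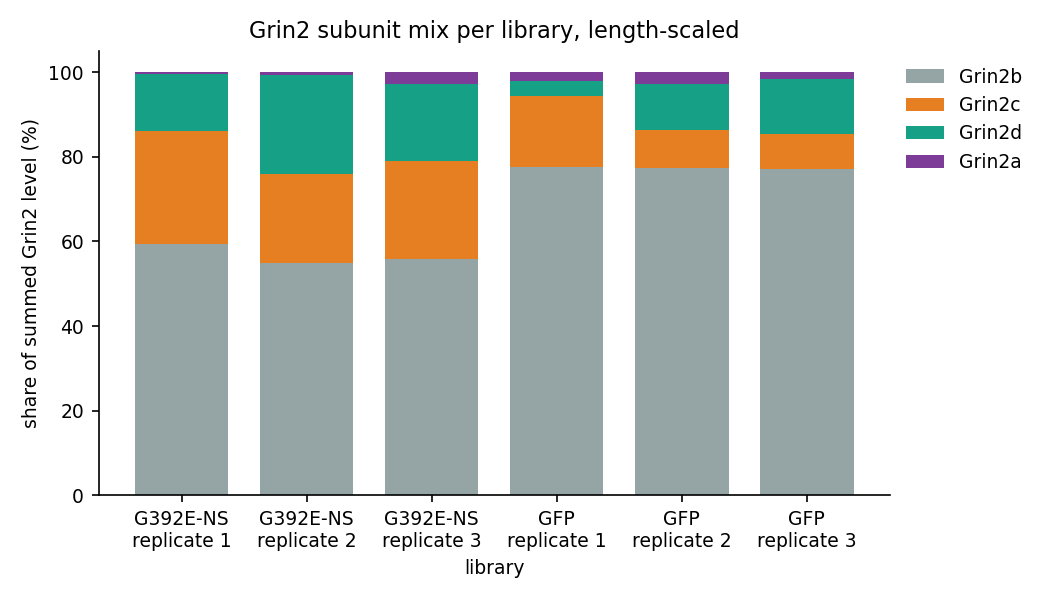
Share (%) of each Grin2 subunit in the summed Grin2a to Grin2d level per kilobase of exon, with a bar for each library, the 3 G392E-NS libraries on the left. The Grin2b share lies between 54.8 and 59.3% in G392E-NS and between 77.0 and 77.5% in GFP libraries.

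Grin3a outweighed all other NMDA subunits in these cells. Grin3a (ENSMUSG00000039579, chromosome 4, 49661611 to 49845744, minus strand) had 187, 96.3 and 143 CPM in G392E-NS and 171, 171 and 173 CPM in GFP libraries. The GFP libraries were nearly alike and fell inside the wide range of the G392E-NS libraries, and its log2 fold change, −0.27 (SE 0.21), missed the threshold (adjusted p = 0.474). Per kilobase of exon it made up 86.1 ± 1.58% of the 6 NMDA subunits in G392E-NS and 91.1 ± 2.35% in GFP libraries. Its level was 29.3, 20.6 and 16.8 times that of Grin1 in G392E-NS and 47.8, 57.2 and 46.3 times in GFP libraries, and these ratios did not overlap. Grin1, the divisor, itself had 5.15 ± 1.52 CPM in G392E-NS and 2.71 ± 0.312 CPM in GFP libraries without overlap. The ratio is therefore not a result separate from that of Grin1. Taken per kilobase of the longest transcript instead, the ratio was 16.1 ± 4.63 in G392E-NS and 36.4 ± 4.27 in GFP libraries.

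Of the metabotropic receptors, Grm3, the group II receptor found in astrocytes (ENSMUSG00000003974, chromosome 5, 9485541 to 9725170, minus strand), varied least. It had 97.3, 80.8 and 77.3 CPM in G392E-NS and 94.4, 89.2 and 99.1 CPM in GFP libraries. The groups overlapped, and the log2 fold change was −0.15 (SE 0.11) at an adjusted p of 0.467. Over the same libraries the summed astrocyte markers ran higher in every G392E-NS library than in every GFP library (11700 to 20400 and 4690 to 7210 CPM).

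Grm5, the group I receptor of astrocyte precursors and young neurons (ENSMUSG00000049583, chromosome 7, 87584168 to 88134907, plus strand), varied most among the abundant members. It had 165, 85.1 and 116 CPM in G392E-NS and 142, 124 and 51.6 CPM in GFP libraries. GFP replicate 3 was the lowest of all 6 and G392E-NS replicate 1 the highest, and its log2 fold change, 0.20 (SE 0.37), missed the threshold (adjusted p = 0.785). It became −0.09 without G392E-NS replicate 1 and −0.13 without GFP replicate 3. In each group the library lowest in Grm5 was also the lowest in Grin2b, namely G392E-NS replicate 2 and GFP replicate 3. These 2 libraries had the highest summed astrocyte markers of their groups, 20400 and 7210 CPM. GFP replicate 1, highest of its group in Grm5 and Grin2b, was close behind in this sum at 6840 CPM, and GFP replicate 2 had 4690 CPM. The proliferation gene Mki67 was also lowest of its group in G392E-NS replicate 2 and GFP replicate 3, at 1.06 and 0.513 CPM. The other libraries of each group had 1.91 to 3.91 and 8.70 to 16.2 CPM. Other proliferation markers did not all share this order. Pcna was lowest of its group in G392E-NS replicate 1 (30.3 CPM) and highest of its group in GFP replicate 3 (39.8 CPM). All 7 proliferation markers summed to 56.3, 57.7 and 78.6 CPM in G392E-NS replicates 1 to 3 and 82.6, 114 and 58.5 CPM in GFP replicates 1 to 3. The part of astrocyte and proliferation markers in the receptor values was not tested.

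**Figure D4:**
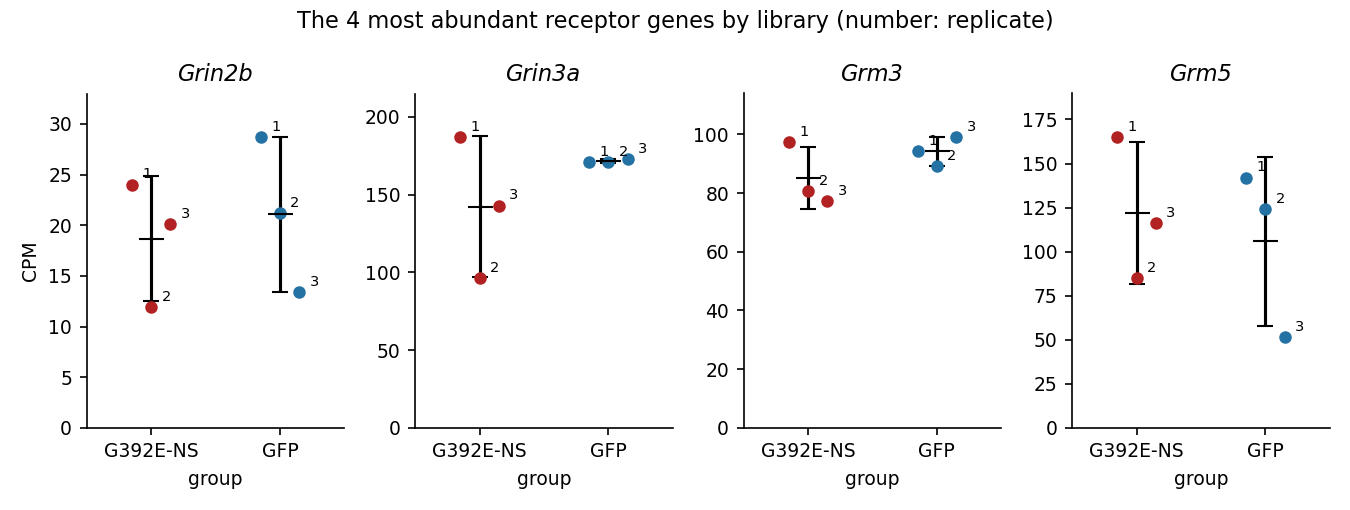
CPM of Grin2b, Grin3a, Grm3 and Grm5 in each library, numbered by replicate, with mean and SD (n = 3 each), G392E-NS left and GFP right. Grm3 stays between 77.3 and 99.1 CPM, while Grm5 spans 51.6 to 165 CPM, and the groups overlap for all 4 genes.

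Grm2, the group II receptor of nerve terminals (ENSMUSG00000023192, chromosome 9, 106643095 to 106656082, minus strand), had 1, 3 and 2 counts in G392E-NS and 1, 5 and 2 counts in GFP libraries and was removed by the low-count filter. The depth-scaled ratio of 6 counts in G392E-NS to 8 in GFP libraries was 0.691, with a 95% exact binomial interval of 0.198 to 2.27 that covers counting error only. Together Grm3 and Grm5 made up 75.1 ± 3.6% of the level of the 9 members per kilobase of exon in G392E-NS and 72.8 ± 1.4% in GFP libraries. This difference of 2.32 points was within the spread (exact two-sided permutation test, p = 0.5). It was 0.258 points without G392E-NS replicate 2, 5.45 points by plain counts and 4.83 points per kilobase of coding sequence (exact permutation p = 0.9, 0.2 and 0.2). The ratio of Grm5 to Grm3 per kilobase of exon was 0.505, 0.313 and 0.445 in G392E-NS and 0.448, 0.415 and 0.155 in GFP libraries, with overlapping groups.

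Of related receptor genes that are not members, Grin3b, Grm4, Grm6, Grm7 and Grm8 were also measured. Grin3b, the other GluN3 subunit, had 0.501 ± 0.107 CPM in G392E-NS and 0.592 ± 0.236 CPM in GFP libraries (log2 fold change −0.25, SE 0.38, adjusted p = 0.748), and its exons overlap 1059 bases of Tmem259, so its counts may hold reads of that gene. Grm4 had 36 counts over the G392E-NS and 18 over the GFP libraries, a depth-scaled ratio of 1.84 (95% exact binomial interval 1.02 to 3.45, counting error only). Grm6, Grm7 and Grm8 had at most 1 count in any library.

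Genes that make, carry or break down the NMDA receptor's co-agonists or act beside it included 2 of 18 tested that rose and none that fell, against 4.79% and 1.36% of all genes tested (list median log2 fold change 0.18). Slc6a9, which encodes the glycine transporter GlyT1, had 84.8, 133 and 90.4 CPM in G392E-NS and 55.6, 47.6 and 65.0 CPM in GFP libraries (log2 fold change 0.87, SE 0.19, adjusted p = 0.0365). Gldc, which encodes the glycine decarboxylase of the glycine cleavage system, had 151, 256 and 159 CPM in G392E-NS and 102, 89.8 and 108 CPM in GFP libraries (log2 fold change 0.92, SE 0.20, adjusted p = 0.0367). Neither gene's groups overlapped, and G392E-NS replicate 2, the library highest in astrocyte markers, was highest in each. The part of astrocyte content was not tested. Without GFP replicates 1, 2 or 3 or G392E-NS replicate 3, the adjusted p was 0.137, 0.135, 0.0533 and 0.0571 for Slc6a9 and 0.131, 0.137, 0.0748 and 0.0502 for Gldc. For Srr, which makes D-serine, the log2 fold change was 0.12 (SE 0.09) at an adjusted p of 0.477. For Shmt1 and Shmt2 of the same list it was −0.14 (SE 0.16) and 0.04 (SE 0.12), with adjusted p of 0.646 and 0.888.

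Of 16 genes that act in Gq signalling below group I receptors, 1 rose and none fell (median 0.07), against 4.79% and 1.36% of all genes tested. The gene that rose was Rgs4, which shortens Gq and Gi signals, with 1.03 ± 0.325 CPM in G392E-NS and 0.363 ± 0.0333 CPM in GFP libraries (log2 fold change 1.51, SE 0.34, adjusted p = 0.0422). This call was lost by DESeq2 (0.0801), by limma-voom (0.0531), without G392E-NS replicate 2 or 3 (0.116 and 0.0545) and without GFP replicate 1, 2 or 3 (0.163, 0.142 and 0.107). The G protein genes Gnaq and Gna11 had log2 fold changes of 0.00 (SE 0.09) and 0.10 (SE 0.10). Of 16 tested genes of Gi signalling below group II receptors, 0 passed in either direction by edgeR's test (median −0.10), against 6.15% of all genes tested. The nearest was Adcy6, an adenylyl cyclase, at −0.33 (SE 0.09, unadjusted p = 0.00578, adjusted p = 0.0705, and 0.0308 by DESeq2). At an unadjusted p under 0.05 there were 4 genes of the Gi list, Gnao1 and Rgs7 with higher and Adcy1 and Adcy6 with lower means in G392E-NS libraries, where 22.4% of all genes tested were under this p.

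Among the marker lists, the median over the astrocyte list was a log2 fold change of 1.34. Fgfr3 was 2.96-fold, Gjb6 12.8-fold, Slc1a2 2.5-fold and Aldoc 3.99-fold higher (adjusted p = 0.00139, 0.00485, 0.0144 and 0.0185). The Slc1a2 call was lost without GFP replicate 2 or 3 (0.0638 and 0.0517). The Aldoc call was lost without GFP replicate 1 or 2 (0.0886 and 0.055). Of the 15 astrocyte markers, 13 had a log2 fold change above 0. Aqp4 and Id3 lay below 0, at −0.14 and −0.35 (adjusted p = 0.861 and 0.365). In the neuron list (12 tested, median 0.12) the growth cone gene Gap43 was 2.16-fold higher (adjusted p = 0.00585) and Elavl4, an RNA-binding protein gene of neurons, was lower by a log2 fold change of −0.70 (adjusted p = 0.0228, and 0.051 to 0.0929 without G392E-NS replicate 2 or 3 or any GFP replicate). Oligodendrocyte lineage markers (10 tested, median 0.17) included Pdgfra and Mog, higher by log2 fold changes of 1.12 and 2.25, with adjusted p of 0.0435 and 0.0295. Without G392E-NS replicate 2 or GFP replicate 1, 2 or 3 these were 0.0538, 0.172, 0.155 and 0.0512 for Pdgfra and 0.0798, 0.117, 0.0795 and 0.0852 for Mog. Of 9 progenitor markers (median −0.15) 1 fell, Nes, by a log2 fold change of −0.77 (adjusted p = 0.048, and 0.0754, 0.104, 0.17, 0.163 and 0.0657 without G392E-NS replicates 2 and 3 and GFP replicates 1, 2 and 3). The Nes call was also lost with upper-quartile scaling (0.0509) and when 3 libraries had to reach 1 CPM (0.051), and the Pdgfra call with scaling to total counts (0.054). Of 7 proliferation markers (median −0.92) 0 passed edgeR's test, and they summed to 56.3 to 78.6 CPM in G392E-NS and 58.5 to 114 CPM in GFP libraries. Mki67 passed without GFP replicate 3, at a log2 fold change of −2.49 (adjusted p = 0.0459), against −1.92 (adjusted p = 0.277) with it. The part of these markers in the receptor values was not tested.

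The genes nearest to Grin2d, the member with the smallest p, were Begain, 2610035F20Rik and Ly6h. Likeness was measured over the 6 libraries as the largest difference between 2 genes in log2 CPM after each was centred on its own mean, among genes of at least 1 CPM on average. It was 0.16 for Begain, which encodes a postsynaptic protein, 0.19 for 2610035F20Rik and 0.22 for Ly6h. Begain had 1.95 CPM in G392E-NS and 0.757 CPM in GFP libraries, and Ly6h had 2.12 and 0.861 CPM. Neither passed the test (adjusted p = 0.0537 and 0.0511).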

How the data were processed

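The authors deposited a table of unnormalized read counts, 1 whole number for each Ensembl gene in each library. Per the submitters' processing notes, build GRCm38 was used with DESeq2 1.4.5, R 3.2.2, HTSeq 0.6.1 and TopHat2 2.0.12. Their roles, the annotation release and the strand setting were not given in the sources used here. GENCODE M21 gave names and exon lengths to 37607 genes. Counts were tested with edgeR 4.0.16 in R 4.3.3 (filterByExpr, TMM scaling, quasi-likelihood F test, Benjamini-Hochberg adjustment over 13775 genes, threshold 0.05). On simulated counts the same test made 136 calls, of which 14 were false, a larger part than the threshold allows for. It recovered 20.4% of 1.5-fold, 58.3% of 2-fold, 80.4% of 3-fold and 95.9% of 4-fold changes. Changes of about 2-fold could thus be missed. CPM values are TMM-scaled, and fold changes are G392E-NS over GFP. Levels between genes are per kilobase of merged exons. Replicates differed far beyond sampling noise, so none was a duplicate. Alternatives were other scalings, filters, DESeq2 1.42.0, limma-voom 3.58.1, a replicate block, other gene lengths and leaving out each library. Members and lists were chosen with earlier results of these data known. Named genes were all members, related receptor genes (a result among them is not reported here), the called genes of each list (up to 4, by p) or its smallest p, and the 3 genes nearest to the member with the smallest p. Srr, Shmt1, Shmt2, Gnaq, Gna11, Sox2, Fabp7, Hes1, Eomes, Mki67, Pcna, Aqp4, Id3, Gnao1, Rgs7, Adcy1, Xist and the Y-linked genes were named after their values were seen.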

Additional observations from a re-analysis of the deposited data

How the results depend on the processing

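The main test called 660 genes higher and 187 lower, 4.79% and 1.36% of those tested, and 0 members. DESeq2 called 1084 and 366 genes (7.87% and 2.66%) and 1 member higher, and edgeR with no low-count filter 1205 and 374 genes (5.2% and 1.61%) and 2 members higher. The cause was not tested. Leaving out a library gave 1.38 to 7.04% higher and 0.324 to 2.81% lower, the lowest without GFP replicate 1 and the highest without G392E-NS replicate 1, and a replicate block gave 217 and 50 genes (1.58% and 0.363%). The shared replicate numbers did not pair the libraries (correlations of same-numbered deviations 0.04, −0.42 and −0.27). Under the block no member was called, and Slc6a9, Gldc, Rgs4, Elavl4, Slc1a2, Aldoc, Pdgfra and Nes were no longer called (adjusted p = 0.0665 to 0.121). Without a library, Grin1 stayed between 0.68 and 1.11 and Grin2d between 1.11 and 1.64 on the log2 scale, neither passing the test. The direction turned for Grm5 (−0.13 to 0.47 over the libraries left out) without G392E-NS replicate 1 (−0.09) or GFP replicate 3 (−0.13), for Grin2b without G392E-NS replicate 2 (0.08) or GFP replicate 1 (0.11), and for Grin3b (−0.47 to 0.14) without GFP replicate 3 (0.14). The Grin2b share differed by −22.0 to −19.7 points without a library, and no share difference changed direction under other lengths or without a library. Depth limits Grin2a and Grm2, with at most 11 counts a library, and also Grin2c and Grin2d, with 7 to 53 and 6 to 35 counts a library.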
